A study of Mus musculus with 8 samples.

Results

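The interferon response genes are a set of 34 mouse genes whose transcription is switched on by interferons, the antiviral and immune cytokines. They were picked by symbol, as the probes of the array whose gene name or RefSeq accession maps to 1 of the 34 symbols. All 34 are on the array, through 80 probes, among 21252 gene symbols in all. The study measured liver RNA of male mice on one-colour Agilent microarrays, with 4 control livers and 4 livers of mice made to model hepatic sinusoidal obstruction syndrome, in which damage to the sinusoids impedes blood flow. The control mice are labelled as normal, with no vehicle named. The model mice received oxaliplatin, a platinum chemotherapy drug, into the peritoneum with 1 injection per week for 6 weeks. The dose, strain and age are not given in the sources used here. The study's design text calls the replicates biological, and each array carries RNA labelled as 1 replicate.

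Type I and type III interferons act through the receptors Ifnar1/Ifnar2 and Ifnlr1/Il10rb, and the kinases Jak1 and Tyk2. They switch on a complex with Stat2 and Irf9 that binds the interferon-stimulated response element in target promoters. Interferon gamma acts through Ifngr1/Ifngr2, Jak1 and Jak2, and its targets often carry the gamma-activated site. The targets include sensors of foreign RNA, enzymes that block viral replication and GTPases that attack intracellular microbes. In liver, hepatocytes, endothelial cells and macrophages can all respond.

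A level is given throughout as log2 signal minus the 75th percentile of the probes detected on every array, so a level of 0 is the signal at that percentile. A difference is the oxaliplatin mean minus the control mean on the log2 scale, tested with limma across all genes with Benjamini-Hochberg adjustment, and a gene is called at an adjusted p under 0.05. Levels are compared between arrays for 1 gene, never between genes. Probes well above background made up 36.1 to 40.9% of the array in control and 27.2 to 38.7% in oxaliplatin livers, with the lowest value on oxaliplatin replicate 2. Within a group, arrays correlated at 0.96 to 0.99 across genes. All 12 hepatocyte markers were measured, at a mean level of 5.41 to 5.82 on every array. The 4 control arrays share 1 slide and scan and the 4 oxaliplatin arrays another, so slide and group cannot be told apart. The run name in the file names is shared by the control arrays and oxaliplatin replicates 3 and 4, and differs for oxaliplatin replicates 1 and 2. What this name stands for is not given in the sources used here, and it does not follow the slide or scan.

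No interferon response gene differed between the groups by this test. Of the 33 members with enough signal, limma called 0 higher and 0 lower, and 1 member, Ifih1, had an unadjusted p under 0.05. Across all 13913 genes tested, 17% were called, 10.3% higher and 6.72% lower. The estimated difference was negative in 29 of the 33 members and positive in 4, with a median of -0.56, beside a median of 0.02 over all genes. Each of these differences comes from 1 probe per gene. Of the 30 members with more than 1 tested probe, 6 had probes that differed in sign: Cmpk2, Ifih1, Irf9, Isg20, Rsad2 and Stat2. In none of the 33 did the 2 groups' values separate without overlap, which they did in 25.9% of all genes. The livers of 1 group, however, differed from each other more for most members than for the median gene. The SD over the 4 control arrays had a median of 1.03 across members and 0.22 across all genes, and over the 4 oxaliplatin arrays 0.64 and 0.17. These spreads leave the differences poorly bounded, and the data do not show that the groups were alike.

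**Figure D1:**
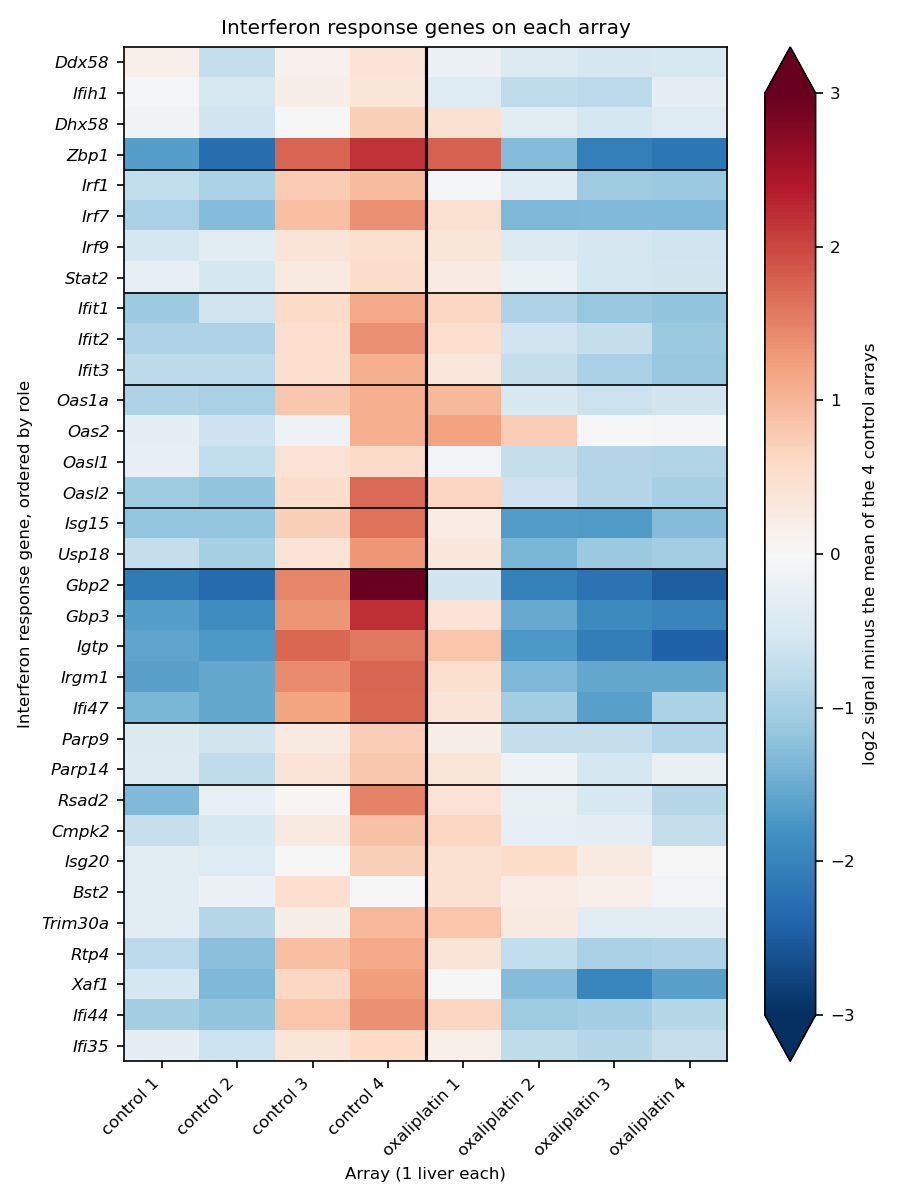
Heat map of the 33 measured interferon response genes (rows, with lines between roles) on the 8 arrays (columns); colour is the log2 signal minus the mean of the 4 control arrays. Control replicates 3 and 4 and oxaliplatin replicate 1 are red or pale for most genes, and the other 5 arrays are mostly blue.

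The members rose and fell together from liver to liver. The mean level of the 33 was -0.36, -0.53, 1.05 and 1.59 on control replicates 1 to 4. On oxaliplatin replicates 1 to 4 it was 0.85, -0.27, -0.51 and -0.52. Thus 2 of the 4 control livers and 1 of the 4 oxaliplatin livers carried higher levels than the rest. The order was described after the values were seen and is given without a test. In 32 of 33 members both control replicates 3 and 4 lay above both control replicates 1 and 2, an order found in 20.5% of all genes. In 31 of 33 members oxaliplatin replicate 1 was the highest of its group, against 28.8% of all genes. Both held for 30 of 33 members, or 90.9%, and for 1391 of the 13913 genes tested. The exceptions were Ddx58 for the control order and Ifih1 and Isg20 for the oxaliplatin order. The highest control value fell on replicate 4 in 31 members and on replicate 3 in 2, and the lowest on replicate 2 in 26 and on replicate 1 in 7. The control arrays share a slide, a scan and a run name, so the order among them was seen within 1 slide and scan. Of the 2 oxaliplatin arrays with the other run name, replicate 1 was high for the members and replicate 2 was not.

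By role, the interferon-induced GTPases had the largest median SD, 1.91 in control and 0.98 in oxaliplatin livers, although the sensor Zbp1 spread more than 4 of the 5 in control and more than all 5 in oxaliplatin livers. Some of these proteins coat and disrupt the vacuoles of intracellular microbes, and others regulate the GTPases that do so. Their genes respond strongly to interferon gamma. Gbp2, a guanylate-binding protein, was at -0.87, -1.06, 2.73 and 4.21 on control replicates 1 to 4. On oxaliplatin replicates 1 to 4 Gbp2 was at 0.69, -0.78, -0.97 and -1.22. Its control livers thus spanned 5.26 log2 units, or 38.4-fold, and the oxaliplatin livers lay below control replicates 3 and 4 but overlapped replicates 1 and 2. The Gbp2 difference was -1.82 ± 1.19 (SE, n = 4 against 4; limma, adjusted p = 0.312), with a 95% confidence interval of -4.56 to 0.91. The measured Gbp2 probe lies at chr3:142300719-142300778 in build mm9, the design build in the file headers.

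Gbp3, a close relative of Gbp2, was at -0.38, -0.61, 2.58 and 3.47 in control and 1.68, -0.24, -0.64 and -0.74 in oxaliplatin livers. Igtp, an immunity-related GTPase also called Irgm3, was at 2.37, 2.22, 5.66 and 5.53 in control and 4.77, 2.23, 1.86 and 1.53 in oxaliplatin livers. For Igtp, oxaliplatin replicate 1 lay nearer to the 2 high control livers than to the rest of its own group. Irgm1, a regulator of the same GTPases, was at 0.38, 0.49, 3.43 and 3.77 in control and 2.50, 0.68, 0.49 and 0.48 in oxaliplatin livers. Ifi47, another immunity-related GTPase, was at 1.40, 1.22, 3.94 and 4.50 in control and 3.15, 1.71, 1.14 and 1.82 in oxaliplatin livers. All 5 GTPases had their 2 highest control values on replicates 3 and 4, with control ranges from 9.69-fold (Ifi47) to 38.4-fold (Gbp2). The 5 differences ran from -1.82 to -0.81, and 0 of 5 passed the test. Because these genes belong to 2 paralogous families, probes may in part share signal between close copies.

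The transcription factors that carry the interferon signal followed the same order with smaller ranges. Irf7, which amplifies type I interferon production, was at -1.85, -2.18, 0.03 and 0.49 in control and -0.43, -2.23, -2.20 and -2.21 in oxaliplatin livers. Oxaliplatin replicates 2 to 4 were nearly equal for Irf7, close to the lowest control liver. Irf1, a factor induced by interferon gamma, was at 1.67, 1.45, 3.16 and 3.36 in control and 2.38, 2.03, 1.35 and 1.29 in oxaliplatin livers. Irf9, a subunit of the complex that binds the response element, was at -0.52, -0.33, 0.40 and 0.48 in control and 0.37, -0.41, -0.49 and -0.59 in oxaliplatin livers. For Irf1 and Irf9 too, oxaliplatin replicate 1 lay between the low and the high control livers. Stat2, which binds Irf9 in that complex, was at 1.49, 1.23, 2.01 and 2.27 in control and 1.99, 1.55, 1.23 and 1.20 in oxaliplatin livers, so that both groups covered nearly the same range. The differences were -0.89 ± 0.69 for Irf7, -0.65 ± 0.49 for Irf1, -0.29 ± 0.30 for Irf9 and -0.26 ± 0.27 for Stat2 (SE), and none of the 4 was called, with limma adjusted p-values from 0.382 to 0.529.

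**Figure D2:**
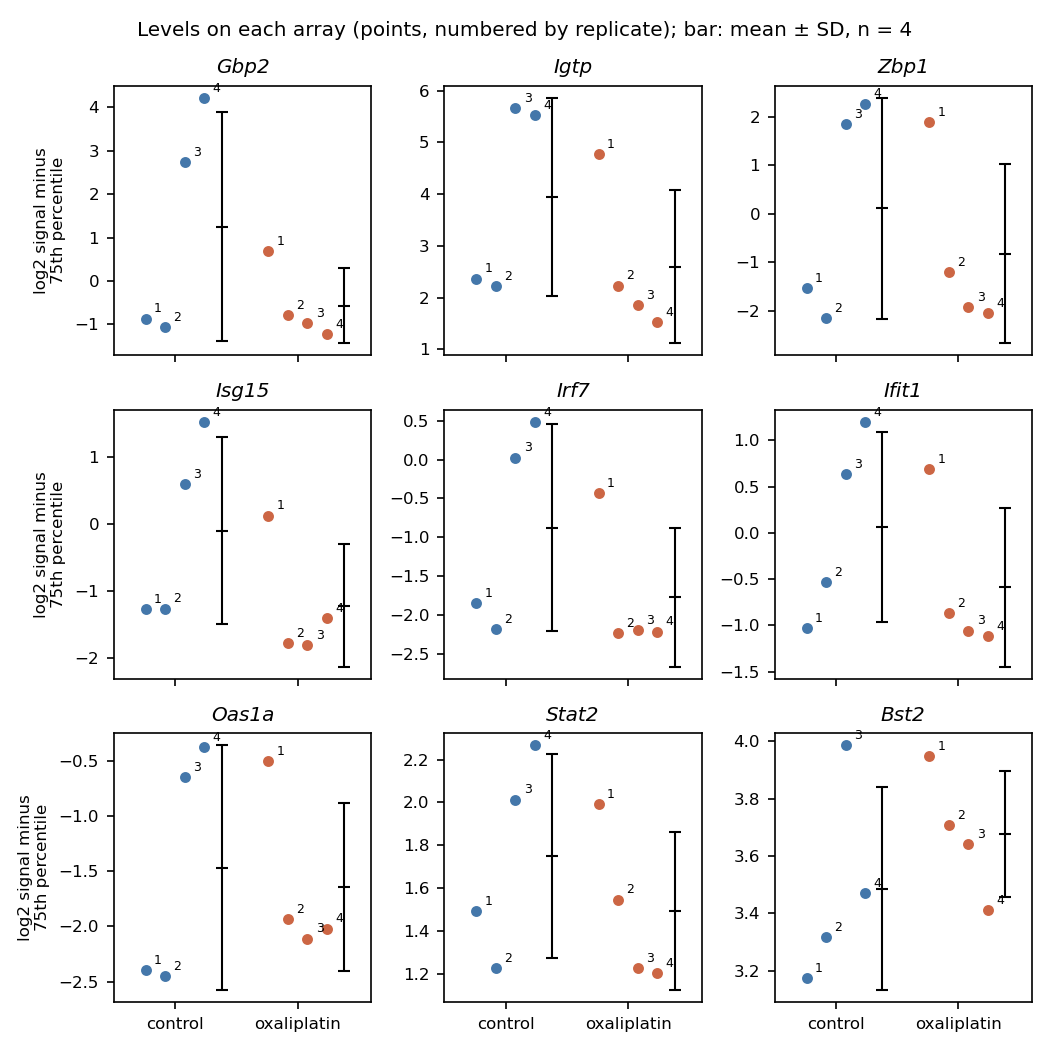
Levels of 9 interferon response genes (log2 signal minus the array's 75th percentile, each panel with its own scale), 1 point per array numbered by replicate, with the mean and SD of the 4 arrays of a group as a bar. Control replicates 3 and 4 and oxaliplatin replicate 1 are the upper points for 8 of the 9 genes, and for Bst2 all 8 arrays lie between 3.17 and 3.99.

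Among the sensors, the cytosolic RNA helicases varied least and Zbp1 most. Zbp1, which binds Z-form nucleic acids and can start necroptosis, was at -1.54, -2.15, 1.85 and 2.28 in control livers. In oxaliplatin livers Zbp1 was at 1.89, -1.20, -1.93 and -2.05. The values of both groups filled nearly the same span, with a range of 21.4-fold in control and 15.3-fold in oxaliplatin. The Zbp1 difference of -0.93 ± 1.26 (SE) was smaller than its standard error, with a limma adjusted p of 0.632.

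Ifih1 encodes MDA5, a sensor of long double-stranded RNA. Its levels were 0.31, -0.11, 0.54 and 0.73 in control and -0.02, -0.39, -0.44 and 0.09 in oxaliplatin livers. The groups overlapped only through control replicate 2, and its difference of -0.56 ± 0.20 (SE; 95% interval -1.03 to -0.09) had the lowest adjusted p of the members, 0.0945. A call for Ifih1 was made in 2 of 20 alternative analyses, with normexp background correction (adjusted p = 0.043) and without control replicate 2 (adjusted p = 0.0357), and its adjusted p ran from 0.0357 to 0.55 over the 20. Its 3 probes did not agree in sign, with differences of -0.56, -0.19 and 0.14. Ddx58 encodes RIG-I, the sensor of RNA with a triphosphate end. It was at -1.29, -2.16, -1.32 and -1.03 in control and -1.63, -1.87, -1.98 and -1.93 in oxaliplatin livers, and control replicate 2 lay below all the others. Its difference was -0.40 ± 0.23 (SE; limma, adjusted p = 0.255), and without control replicate 2 it was -0.64 ± 0.13 (adjusted p = 0.021). In the fit of all probes, 1 of its 5 probes, at chr4:40151133-40151192 in build mm9, was called lower by 0.56 (limma, adjusted p = 0.0201), and all 5 differences were negative. It was the only call among the 76 member probes tested, of which 62 were negative, while 16.2% of all probes were called and 6.2% called lower. Dhx58, a regulator of both helicases, spanned 2.45-fold in control and 1.98-fold in oxaliplatin livers, and its difference of -0.20 ± 0.31 (SE) was not called.

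Isg15, a ubiquitin-like protein that is attached to other proteins during the interferon response, was at -1.27, -1.26, 0.60 and 1.53 in control livers. In oxaliplatin livers Isg15 was at 0.13, -1.78, -1.80 and -1.41. Oxaliplatin replicates 2 to 4 lay below all control livers, and replicate 1 lay above control replicates 1 and 2. The Isg15 difference was -1.12 ± 0.72 (SE; 95% interval -2.77 to 0.54; limma, adjusted p = 0.307). Usp18, the protease that removes Isg15 and dampens receptor signalling, was at -0.32, -0.59, 0.80 and 1.69 in control and 0.72, -0.98, -0.72 and -0.65 in oxaliplatin livers. It had the same division of arrays as Isg15, and its difference of -0.80 ± 0.56 (SE) was not called.

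The IFIT proteins bind viral RNA and hinder its translation. Ifit1 was at -1.03, -0.54, 0.63 and 1.20 in control and 0.69, -0.87, -1.06 and -1.11 in oxaliplatin livers. Ifit2 was at -1.33, -1.34, 0.09 and 0.95 in control and 0.11, -0.99, -1.13 and -1.53 in oxaliplatin livers. Ifit3 was at -0.45, -0.46, 0.84 and 1.41 in control and 0.67, -0.37, -0.63 and -0.81 in oxaliplatin livers. All 3 placed oxaliplatin replicate 1 among or near the high control livers, and their differences of -0.65, -0.48 and -0.62 were not called (limma, adjusted p from 0.414 to 0.588).

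The OAS enzymes make the second messenger that activates RNase L, while the related Oasl1 lacks that activity. Oas1a was at -2.40, -2.45, -0.65 and -0.38 in control and -0.50, -1.93, -2.11 and -2.02 in oxaliplatin livers. Oas2 was at -1.64, -1.99, -1.50 and -0.29 in control and -0.15, -0.61, -1.33 and -1.41 in oxaliplatin livers. Oas2 had the largest positive difference among the members, 0.48 ± 0.42 (SE; limma, adjusted p = 0.451), with oxaliplatin replicate 1 above all control livers. Oasl1 was at 1.45, 0.95, 2.13 and 2.27 in control and 1.61, 0.99, 0.82 and 0.81 in oxaliplatin livers. Oasl2 spanned 7.40-fold in control and 3.12-fold in oxaliplatin livers. Oas3 did not enter the test, because neither of its 2 probes was well above background on more than 1 array of a group. None of the 4 tested OAS genes was called.

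Of the 2 PARP family members, which modify proteins with ADP-ribose, Parp9 spanned 2.45-fold in control and 2.09-fold in oxaliplatin livers. Parp14 spanned 2.97-fold and 1.85-fold, with differences of -0.54 ± 0.34 for Parp9 and -0.13 ± 0.35 (SE) for Parp14. The remaining 9 effectors had no common sign, with 6 negative and 3 positive differences and 0 calls. Xaf1, an antagonist of an inhibitor of apoptosis, was at -0.86, -1.68, 0.31 and 0.94 in control and -0.32, -1.63, -2.29 and -1.95 in oxaliplatin livers. Its difference of -1.22 ± 0.63 (SE; limma, adjusted p = 0.208) was the largest of the 9. Rsad2, or viperin, a radical enzyme that makes a chain-terminating nucleotide, was at -1.66, -0.57, -0.30 and 1.14 in control and 0.09, -0.57, -0.80 and -1.20 in oxaliplatin livers. Cmpk2, its neighbour in the genome and a nucleotide kinase, spanned 2.97-fold in control and 2.54-fold in oxaliplatin livers. Both kept the order of control replicates 3 and 4 above 1 and 2, with differences near 0 relative to their standard errors (-0.27 ± 0.55 and -0.16 ± 0.40).

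Rtp4, a chaperone for receptor transport, was at 1.62, 1.14, 3.31 and 3.55 in control and 2.78, 1.66, 1.42 and 1.48 in oxaliplatin livers. Ifi44 spanned 5.87-fold in control and Ifi35 2.38-fold, and for both genes oxaliplatin replicates 2 to 4 lay close together below replicate 1. The 3 effectors with positive differences had small or moderate ranges. Bst2, or tetherin, which holds budding virions on the cell surface, was at 3.17, 3.32, 3.99 and 3.47 in control and 3.95, 3.71, 3.64 and 3.41 in oxaliplatin livers. Its control range of 1.76-fold was the smallest of the members. Isg20, an exonuclease, was at -1.54, -1.62, -1.24 and -0.52 in control and -0.77, -0.69, -0.97 and -1.24 in oxaliplatin livers, and Trim30a, a TRIM protein, spanned 3.59-fold and 2.23-fold. The differences of the 3 were 0.19 ± 0.19, 0.31 ± 0.25 and 0.12 ± 0.42 (SE), and none was called.

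**Figure D3:**
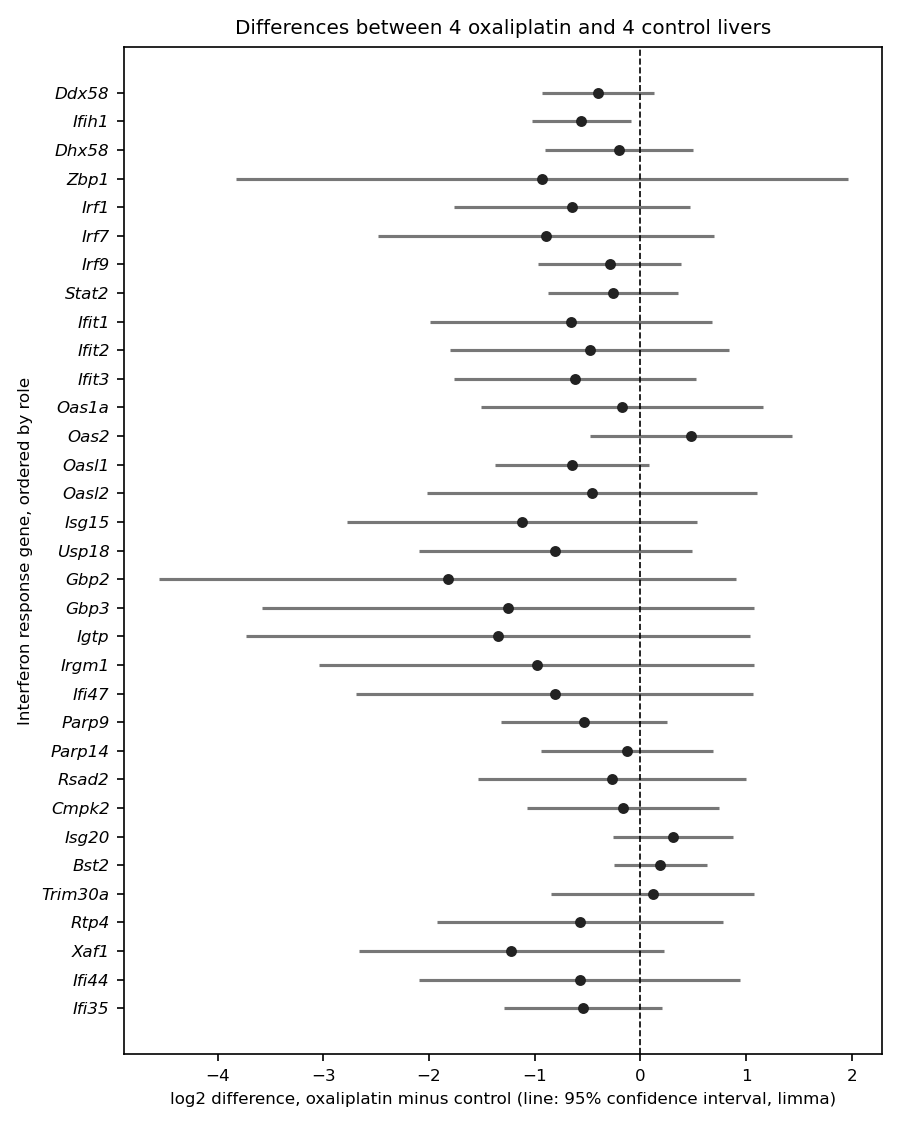
Difference of each of the 33 measured interferon response genes, oxaliplatin minus control (log2, points), with the 95% confidence interval of the limma fit (lines); the dashed line marks no difference. 29 points lie below 0, and only the interval of Ifih1 (-1.03 to -0.09, unadjusted) leaves 0 out.

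The spread was compared with that of all genes. In control livers 19 of 33 members had an SD above 0.85, the 95th percentile of all genes, and in oxaliplatin livers 15 of 33 had one above 0.66. In all 33 members the SD was larger in control than in oxaliplatin livers, whereas over all genes the oxaliplatin SD was the larger in 34.1%. Without oxaliplatin replicate 1 the median member SD of that group fell to 0.20, close to the 0.17 of all genes over the full group. The spread was seen on nearly every probe. Of the 76 tested member probes, 71 had control replicates 3 and 4 above 1 and 2, and 70 were highest on oxaliplatin replicate 1.

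**Figure D4:**
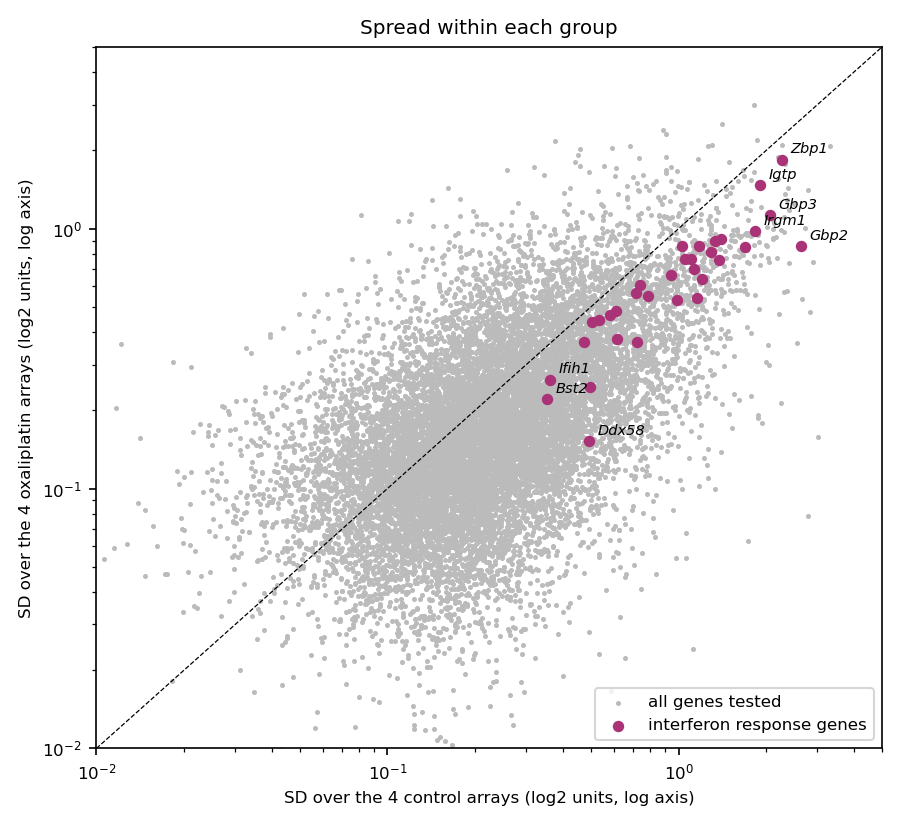
SD over the 4 control arrays (x axis) and over the 4 oxaliplatin arrays (y axis), both in log2 units on log axes, for all genes tested (grey) and the 33 interferon response genes (purple); the dashed line marks equal spread, and genes with an SD below the axis limits are not drawn. All 33 members lie below the line, with Gbp2, Zbp1, Gbp3 and Igtp farthest to the right.

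The promoters of the members are shown here as background, and their part in the members' common order was not tested. RefSeq promoter windows (build GRCm38.p6) were found for 27 of the 34 members. The 250 bases upstream of each start were searched on both strands for the core of the interferon-stimulated response element, GAAA followed after any 2 bases by GAAA, and for TTCNNNGAA, the gamma-activated site. The first was found in 13 of 27 members (48.1%), against 3.46% of 27025 genes and 2.98% of 32851 windows. The second was found in 6 of 27 (22.2%), against 8.13% of genes and 7.02% of windows. The members were listed as genes that interferons switch on, so shares above those of all genes follow from the list itself. They are not a result of these livers. The stretches below are read 5′ to 3′ on the strand of the gene, with each match to the response element core in capitals, as GAAA pairs or, from the other strand, TTTC pairs, and with overlapping matches merged. Gbp2, Gbp3, Igtp, Irgm1 and Isg15 are given for their wide spread, and Ifit1 and Oas1a as antiviral effectors of their families. Bst2 is given because it spread least among the control livers.
Gbp2: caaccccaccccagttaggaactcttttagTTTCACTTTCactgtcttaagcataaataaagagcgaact
Gbp3: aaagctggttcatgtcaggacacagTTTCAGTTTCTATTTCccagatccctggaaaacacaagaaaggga
Igtp: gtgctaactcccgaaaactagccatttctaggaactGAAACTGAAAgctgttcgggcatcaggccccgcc
Irgm1: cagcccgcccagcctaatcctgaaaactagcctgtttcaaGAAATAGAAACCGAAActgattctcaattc
Isg15: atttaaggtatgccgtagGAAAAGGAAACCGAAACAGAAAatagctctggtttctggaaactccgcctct
Ifit1: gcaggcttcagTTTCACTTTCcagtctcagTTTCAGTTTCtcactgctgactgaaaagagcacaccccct
Oas1a: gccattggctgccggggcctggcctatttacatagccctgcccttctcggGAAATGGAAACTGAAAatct
Bst2: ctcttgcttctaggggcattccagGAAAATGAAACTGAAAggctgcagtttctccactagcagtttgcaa

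The Gbp2 stretch lies at chr3:142620574-142620643 on the plus strand and holds 1 match. Gbp3, at chr3:142559974-142560043 (plus), holds 2 overlapping matches. Igtp, at chr11:58199486-58199555 (plus), holds 1 match in the last 70 bases before its start, and Irgm1, at chr11:48871421-48871490 (minus), holds 2. The Isg15 stretch, at chr4:156200845-156200914 (minus), carries 3 overlapping matches, the most of any member. Ifit1, at chr19:34640774-34640843 (plus), has 2 separate matches, and Oas1a, at chr5:120907526-120907595 (minus), has 2 that overlap. Bst2, at chr8:71537557-71537626 (minus), also has 2. A match was thus present in Bst2, with the smallest control spread, and in Gbp2, with the largest. Not all members with a wide spread had one: Ifi47, the remaining GTPase, had a window but no match, as did Oasl2, Irf7 and Ifi44. Oas3, Ifit3, Rsad2, Stat2 and Trim30a are the other members with a match. Zbp1, Parp9, Parp14, Oas2, Usp18, Dhx58 and Rtp4 had no window in the table. A match describes the letters of the window and is not a measured binding site.

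Most of the interferons themselves were not detected. Of the 20 ligand genes with a probe, 13, among them Ifnb1, were well above background on no array and 3 on 1 to 3 arrays. Ifng was well above background on at most 2 of the 8 arrays. The 4 that entered the test were dim but detected, Ifnl3 on 7 arrays, Ifna7 and Ifnk on 5 each and Ifnz on 4. They had mean levels of -5.76 to -4.93 per array, and 0 of 4 were called. Low array signal does not show that a ligand was absent from these livers.

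The receptors and kinases varied little among the livers of a group. Of 15 genes tested in this list 0 were called (limma), and the median control SD was 0.16, beside 1.03 for the members. Both array orders were seen in 6 of the 15, among them Ifnar2 and Jak1. Ifnar1 was at -0.21, -0.23, -0.30 and -0.72 in control and -0.36, -0.01, -0.04 and 0.00 in oxaliplatin livers. The differences of the receptor chains were 0.26 ± 0.14 for Ifnar1, -0.24 ± 0.12 for Ifnar2, 0.12 ± 0.15 for Ifngr1 and -0.23 ± 0.14 (SE) for Ifngr2. Those of the kinases were 0.03 ± 0.11 for Jak1, 0.05 ± 0.12 for Jak2 and 0.31 ± 0.10 (SE) for Tyk2, with an adjusted p of 0.0746 for Tyk2. Il10rb had a difference of 0.25, and Ifnlr1 did not pass the filter. Socs1, the feedback inhibitor of the JAK kinases, is named after its values were seen. It was at -4.38, -4.99, -0.70 and 0.85 in control and -3.26, -3.89, -3.94 and -4.43 in oxaliplatin livers, with a control SD of 2.83.

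Other interferon targets, outside the 34, had the members' order too. Of 52 other type I targets tested, 41 showed both array orders, and of 27 interferon gamma targets 24 did. The gamma targets had a median control SD of 1.40, and 0 of 27 were called, with a median difference of -0.61. Tgtp1, a GTPase in that list, named after its values were seen, was at -1.09, -1.45, 4.44 and 4.48 in control and 3.06, -0.45, -1.32 and -1.26 in oxaliplatin livers. Of the 52 type I targets 1 was called, Ifitm1, a membrane protein that blocks virus entry. Ifitm1 was at 0.60, 0.51, 0.21 and 0.59 in control and -0.17, -0.23, -0.71 and -0.37 in oxaliplatin livers. Its groups did not overlap and it fell by 0.85 ± 0.15 (SE; limma, adjusted p = 0.0102), a call kept in all 20 alternatives. Among the control livers replicate 3 was the lowest for Ifitm1, unlike for any member.

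Upstream of interferon production, 4 of 19 innate sensing genes were called higher and 0 lower, where 10.3% of all genes were called higher. Tlr9, a receptor for unmethylated DNA, was at 1.51, 1.43, 1.46 and 1.20 in control and 2.08, 2.04, 2.16 and 2.11 in oxaliplatin livers, a rise of 0.70 ± 0.09 (SE; limma, adjusted p = 0.00491). Irf5, a transcription factor of macrophages, rose by 1.27 ± 0.33 and Tlr4, the endotoxin receptor, by 0.91 ± 0.23 (SE). Aim2, a cytosolic DNA sensor, rose by 1.31 ± 0.34 (SE; limma, adjusted p = 0.0364). In all 4 the groups did not overlap, as in 14.2% of all genes in this direction. Irf5 and Aim2 had control replicates 3 and 4 above 1 and 2, as the members did, and Tlr4 and Aim2 were highest on oxaliplatin replicate 1. Aim2 was well above background on 3 of the 4 control arrays. The Tlr9 call was kept in all 20 alternatives, that of Tlr4 in 12, of Irf5 in 11 and of Aim2 in 8 of 19. For Tlr9 and Aim2 only 1 of 2 probes passed the filter, so their calls were not repeated on a second probe.

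Markers of the cell types that carry or answer interferon were read beside the members, since in bulk liver fewer cells of a type and less RNA per cell cannot be told apart. Of 11 monocyte markers, all measured, 7 had control replicates 3 and 4 above 1 and 2, and their mean level was -1.38, -2.08, -0.84 and -0.12 on control replicates 1 to 4. On oxaliplatin replicates 1 to 4 the monocyte mean was -0.84, -0.56, -2.03 and -1.79. By this mean replicate 2, which was low for the members, was the highest of its group. Single markers differed, and 4 of the 11 were highest on oxaliplatin replicate 1. Both array orders were seen in 4 of the 11 monocyte markers, or 36.4%, beside 1391 of the 13913 genes tested. Of the 11 differences 5 were positive and 6 negative, with a median of -0.06. Only Cx3cr1 and Lyz2 were called, higher by 1.06 and 1.02 (each in 13 of 20 alternatives), and Cx3cr1 had only 1 probe that passed the filter. Of 12 Kupffer cell markers, all measured, 8 had the control order and 3 were highest on oxaliplatin replicate 1. The Kupffer cell mean ran from 1.04 to 1.85 in control and from 1.39 to 2.51 in oxaliplatin livers, and 3 of 12 markers were called higher, where 10.3% of all genes were. Csf1r rose by 1.58 (called in 20 of 20 alternatives), Folr2 by 1.02 (16) and Clec4f by 0.70 (8). Marco, named after its values were seen, had the largest difference of the list and the other sign, -2.15 ± 0.64 (SE; limma, adjusted p = 0.0548), and was called lower in 7 of 20 alternatives. The part of these cells in the members' spread was not tested.

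Most lymphocyte markers did not have the members' order. Of 20 T and NK cell markers 14 were measured, with Cd4, Ncr1 and Prf1 among those that were not. The control order was seen in 3 of 14, Gzma, Gzmb and Tbx21, beside 20.5% of all genes, and 1 of 14, Gzmb, showed both array orders. The mean level of the 14 ran from -3.66 to -3.11 in control and from -3.38 to -2.65 in oxaliplatin livers. It was lowest of all arrays on control replicate 4, the control array on which 31 of 33 members were highest. On that array Zap70, at -0.39, and Cd3g, at -6.32, lay far below their other control values, and the place of its mean as the lowest depends on them. Cd3g was well above background on 3 of the 4 control arrays. Gzma was at -1.15, -1.17, 0.73 and 0.48 and Gzmb at -2.62, -2.44, -1.51 and -1.90 in control livers. These 2 had the only negative differences of the 14, and neither was called. Cd3e and Cd3d, for CD3 subunits of the T cell receptor complex, were called higher, by 0.78 and 0.86, in 20 and 19 of 20 alternatives. Of the B and plasma cell markers 5 of 10 were measured, and of the plasmacytoid dendritic cell markers 6 of 10, without Siglech. Neither list had a gene with both array orders, and the means were -4.25 to -2.72 and -3.72 to -3.26 in control and -2.96 to -1.76 and -3.37 to -2.86 in oxaliplatin livers. In the plasmacytoid list 3 of 6 differences were negative, with a median of 0.05. Spib rose by 2.48 (called in 19 of 19 alternatives) and Cd209d by 1.02 (4 of 19), from a control signal above background on 2 and 3 of 4 arrays. Of 6 measured dendritic cell markers Xcr1 rose by 0.72 and Ccr7 by 1.13 (called in 18 and 14 of 20 alternatives). Spib, Cd209d, Xcr1 and Ccr7 each had only 1 probe that passed the filter. Of 8 measured neutrophil markers 1, Lcn2, showed both orders, and Lcn2 fell by 3.44 (called in 11 of 20 alternatives). The other 7 were not called, and 6 of the 8 differences were negative and 2 positive. Hepatocyte means lay between 5.41 and 5.52 in control and between 5.69 and 5.82 in oxaliplatin livers, with 0 of 12 markers showing both orders. Of these, 10 differences were positive and 2 negative. Alb rose by 0.67 (called in 20 of 20 alternatives), Cyp2e1 by 0.54 (17), Serpina1a by 0.49 (15), F2 by 0.46 (15) and Ttr by 1.40 (12). Over the alternatives Serpina1a went down to 0.14, F2 to 0.16, Cyp2e1 to 0.21 and Alb to 0.34. Sinusoidal endothelial means lay between 0.68 and 0.84 and between 0.58 and 0.90, with 0 of 10 showing both, and Lyve1 fell by 1.38 while Stab2 rose by 0.42 (called in 18 and 5 of 20 alternatives).

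**Figure D5:**
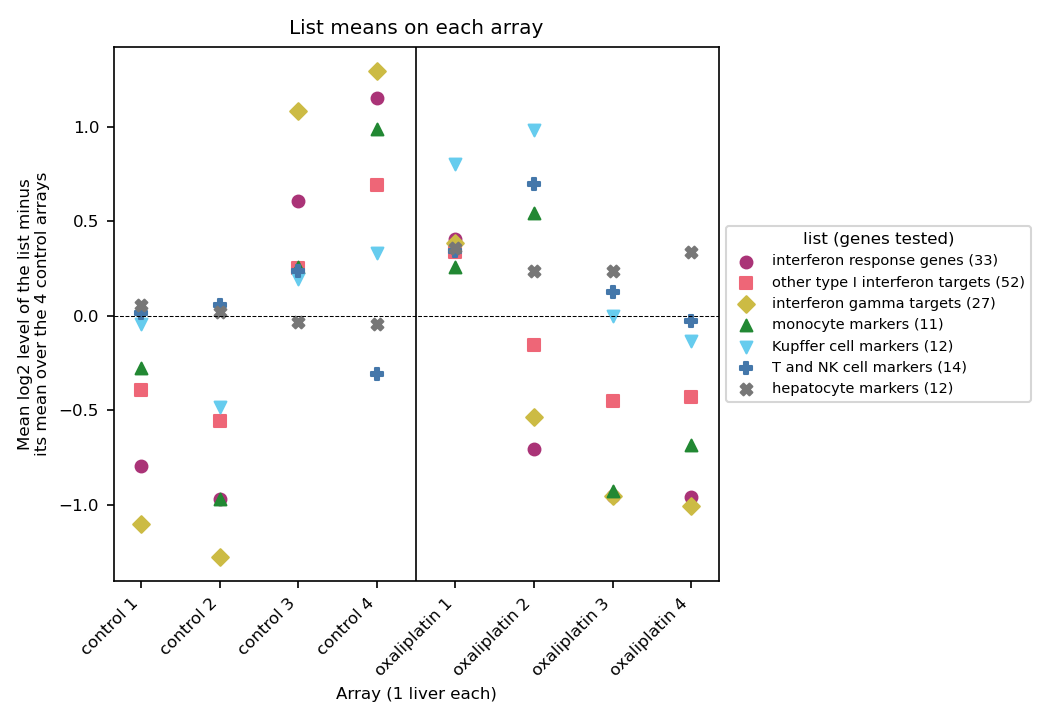
Mean log2 level of 7 gene lists on each array, minus the list's mean over the 4 control arrays, with the number of genes in each list in the key. The 3 interferon lists are high on control replicates 3 and 4 and oxaliplatin replicate 1, the Kupffer cell markers are highest on oxaliplatin replicate 2, and the hepatocyte markers vary least among the control arrays.

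Restricting the comparison to the 6 arrays of the first run name, or fitting the run name as a covariate, removes or absorbs oxaliplatin replicates 1 and 2. The median member difference was then -0.92 in either fit, with 2 of 33 positive, and 0 members were called (limma), while 3.99% of all genes were called with the 6 arrays and 6.88% with the covariate. For Gbp2 the covariate fit gave -2.35 ± 1.52 (SE; limma, adjusted p = 0.347). Without control replicate 4 the median difference shrank to -0.23 and 10 of 33 members were positive, and without oxaliplatin replicate 1 it was -0.83.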

How the data were processed

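Liver RNA of 4 control and 4 oxaliplatin mice was labelled with Cy3 and hybridised to one-colour Agilent arrays. Per the file headers, the deposited scanner intensity files come from Feature Extraction 12.0.3.1 with probe coordinates in build mm9; the submitters' processing notes name version 10.7 and limma. The processed intensity is background-subtracted and detrended within each array, per the file headers. The deposited flags, other values of 0 or 1, mark spots well above background and outliers, per the file headers. The authors also deposited log2 values, used as an alternative; their column medians lie between 5.76 and 5.83, and how they were scaled is not given in the sources used here.

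Here log2 intensity was centred on each array's 75th percentile over the 38453 probes well above background on all 8 arrays, since most probes are not detected. Outlier spots were then left out, and of 149782 probes the 54636 above background on at least 4 arrays were kept. The brightest of these per gene over all arrays represented the gene (13913 genes). Of the probes, 47972 were named through RefSeq accessions, 155 kept the name in the file and 101655 had no gene name. limma 3.58.1 in R 4.3.3 fitted 2 groups, and p-values were adjusted over all genes; the fit was tested on simulated data. The members and lists were chosen with earlier results of these data known. All 34 members are accounted for; of each companion list, called genes (at most 6), receptors and JAK kinases are named, and 1 further gene of that rule is not reported here. The number of arrays limits the precision. The alternatives covered background correction, scaling, filters, probe choice, variance model, left-out arrays, run name and a replicate block.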

Additional observations from a re-analysis of the deposited data

Results flagged for a closer look

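For 7 of the 66 pairs of a member and a group, 1 array stood apart from the other 3, its gap to the nearest of them, as a share of the group's range, being past Dixon's 95% critical value. Chance alone gives about 1 in 20 such pairs, and the members share their arrays, so the 7 are not separate events. In all 7 the array was oxaliplatin replicate 1, as the highest of its group. Its level was -0.43 for Irf7, with the next array at -2.20. It was 0.69 for Ifit1 (next -0.87), -0.50 for Oas1a (next -1.93) and 2.50 for Irgm1 (next 0.68). For Parp9 it was 0.87 (next -0.02), for Ifi44 -0.11 (next -1.59) and for Ifi35 0.45 (next -0.39).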

How the results depend on the processing

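Over 20 alternatives, 3 of 660 member results were called, for Ifih1 and Ddx58, all lower; no member was called higher. The count called lower was 1 with normexp, 0 to 2 leaving out 1 array, and 0 otherwise. The median member difference ran from -0.67 to -0.39 with all 8 arrays and no run name term, was -0.92 with the run name as covariate or on the first run name alone, and ran from -0.85 to -0.23 leaving out 1 array. With normexp and 3 other scalings, the array orders and median SDs of the members stayed within 1.5 times their values. The median oxaliplatin SD ran from 0.20, without replicate 1, to 0.77 leaving out 1 array.

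Over all genes, 1434 were called higher and 935 lower. With the percentile over all probes 1617 were lower, and without a filter 3766 were higher. Leaving out 1 array gave 670 to 1391 higher and 320 to 863 lower. The run name covariate gave 619 and 338, and the first run name alone 356 and 199. Higher calls were 60.5% of all calls, but 37.6% with the all-probe percentile, 49.3% with the deposited log2 values, 80.9% without a filter and 71.8% with the block; quantile normalization gave 1120 higher and 1122 lower. The all-gene median was -0.09 with the all-probe percentile and 0.20 without a filter.

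The replicate block gave 502 higher and 197 lower and called no member. Same-numbered arrays correlated at -0.32, -0.08, -0.09 and -0.23 in their deviations, within the -0.39 to 0.44 of differently numbered arrays. These values gave no sign that the numbers pair the livers. They cannot exclude a pairing, since differences between livers of other origin also enter them. Dim probes limit the ligands and Oas3; 4 arrays a group limit the wide-spread members.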
